A study of Mus musculus with 4 samples.

Results

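A set of 10 liver genes that make, conjugate and move bile acids or regulate that output were followed in female mice after knockdown of Cux2. The genes, 10 of 25113 tested, were chosen by name: Cyp7a1, Cyp8b1, Cyp27a1, Cyp7b1 and Hsd3b7 for synthesis, Baat for conjugation, Abcb11 and Slc10a1 for transport, and Nr0b2 and Nr1h4 for feedback. They were found through the RefSeq accessions of their probes, 12 in all, with 2 probes each for Cyp7a1 and Baat. Each of the 12 probes was well above background in all 8 channel readings, so that every gene was tested. The animals were 8 wk old CD-1 females, an outbred stock. Whole-liver RNA of mice treated with Cux2 siRNA for 5 or 8 days was hybridised on 4 2-colour Agilent arrays against RNA of females of equal age given a non-specific siRNA. Each channel held a pool of livers. The treated pools came from 3 and 2 mice at day 5 (replicates 1 and 2) and from 2 mice each at day 8. The 13 control mice were split into 2 pools of 6 or 7, whereas each array's own description gives 6 control mice. Both control pools served both days, but which of them lay on which array, and when the control mice were killed, are points that the labels leave unstated. The treated pool was in the red channel on both replicate 1 arrays and in the green channel on both replicate 2 arrays, so that the replicate number is also the dye orientation. The 2 replicates of a day are pools of separate mice on the treated side. The p-values measure the spread between the 2 arrays of a day, in which treated pool, dye orientation and possibly control pool all differ.

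Bile acids are made from cholesterol in hepatocytes. In the classical route Cyp7a1 adds the first hydroxyl group, and in the alternative route Cyp27a1 and Cyp7b1 begin on the side chain and on the oxysterol. Hsd3b7 then acts in both routes, Cyp8b1 directs the product to cholic acid, and Baat joins bile acids to taurine or glycine. Slc10a1 (NTCP) takes conjugated bile acids up from the blood and Abcb11 (BSEP) pumps them into the canaliculus. Bile acids activate the nuclear receptor FXR, the product of Nr1h4, which induces Abcb11 and Nr0b2 (SHP), a corepressor of Cyp7a1 and Cyp8b1. Fgf15 from the ileum acts on the liver through Fgfr4 and its partner Klb and lowers Cyp7a1.

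Every ratio below is log2 of the Cux2 siRNA pool over the non-specific siRNA pool on 1 array, after background correction and loess normalisation. A gene passed where its p, adjusted by Benjamini-Hochberg across the 25113 genes, was under 0.05 in 1 limma fit of the 4 arrays, which also gives the standard errors (SE) and 95% confidence intervals. Cux2, the targeted gene, was lower on all 4 arrays (-1.91 and -1.70 at day 5, -1.07 and -1.20 at day 8) and averaged -1.47 over both days (SE 0.06, limma adjusted p = 0.000933). The tissue label was borne out: the 10 hepatocyte markers tested, among them Alb, Ttr and Apoa1, were well above background in every channel. Of these 10 markers, 8 had a ratio above 0 on each replicate 1 array and 1 had on each replicate 2 array.

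At day 5, 2 of the 10 bile acid genes passed, both downwards (Abcb11 and Hsd3b7), where 16.8% of all genes tested passed (7.36% rose, 9.41% fell). At day 8 the same genes, 2 of 10, fell, where 14.3% of all genes passed (6.26% rose, 8.02% fell). For the mean of both days 3 of 10 fell and none rose: Abcb11, Hsd3b7 and Slc10a1. Over all genes 31.0% passed for that mean (16.3% fell and 14.8% rose), so the members' share lay near the background. Their median was -0.27, beside 0.0032 over all genes tested. With the replicate number as a term (a replicate block), which also takes up the dye orientation, 6 of 10 passed at day 5, 4 at day 8 and 6 for both days. That fit also called more of all genes: 32.8% at day 5, 29.7% at day 8 and 44.8% for both days. The members passing for both days in that fit were 5 that fell and 1 that rose (Nr1h4). Because control pools recur, the 4 ratios are not fully independent.

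**Figure D1:**
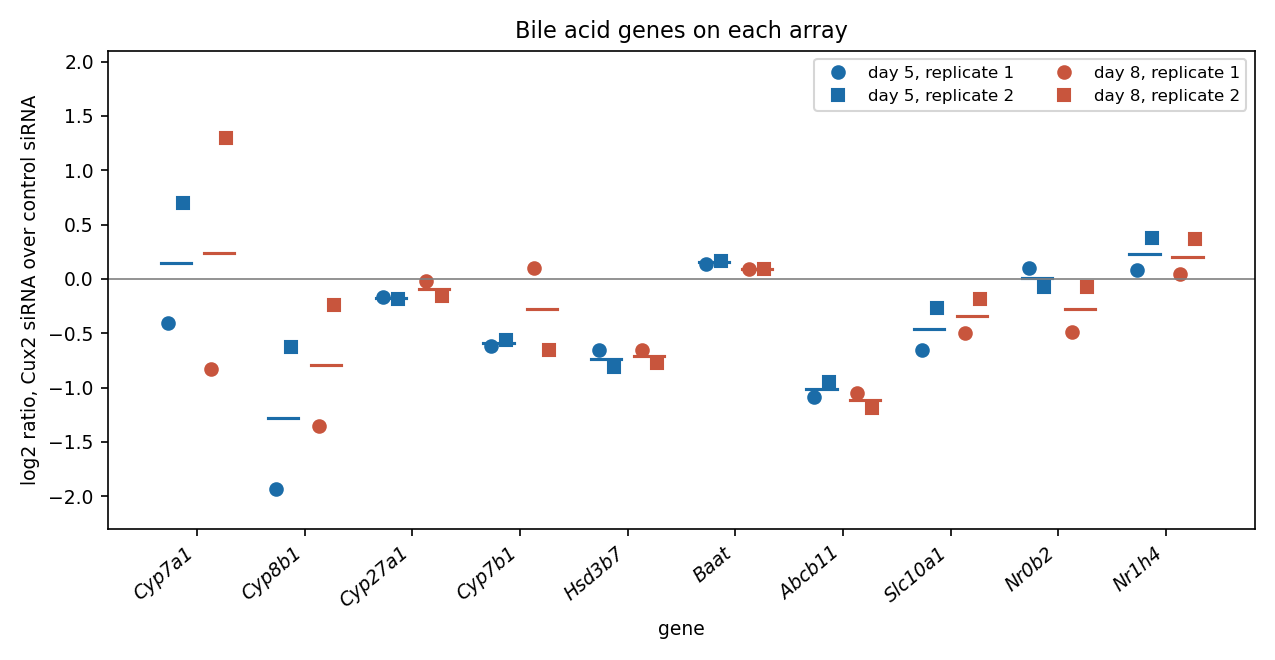
Log2 ratio (vertical axis, Cux2 siRNA over non-specific siRNA) of each bile acid gene (horizontal axis) on each array; colours give the day, circles replicate 1, squares replicate 2, and short lines the mean of a day. The points of Abcb11 lie between -1.19 and -0.95 and those of Hsd3b7 between -0.81 and -0.65, while the circles and squares of Cyp7a1 stand on opposite sides of 0.

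The canalicular export pump Abcb11 had the lowest adjusted p of the 10 genes. Its normalised log2 intensity was 16.07, 15.79, 16.13 and 15.90 in the control channel (day 5 replicates 1 and 2, then day 8 replicates 1 and 2) and 14.98, 14.85, 15.08 and 14.71 in the treated channel. Every treated value lay below every control value. The ratios were -1.09 and -0.95 at day 5 and -1.05 and -1.19 at day 8. The mean fell by 1.02 at day 5 (SE 0.08, limma adjusted p = 0.00643) and by 1.12 at day 8 (SE 0.08, adjusted p = 0.00634). Over both days it fell by 1.07 (SE 0.06, adjusted p = 0.00127), to 47.7% of the control level. Without day 5 replicate 2 the day 5 call was lost (adjusted p = 0.0564), and without day 8 replicate 2 the day 8 call (0.0614).

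Hsd3b7 encodes the 3-beta-hydroxysteroid dehydrogenase that acts on the sterol ring after the first hydroxylation in either route. Its log2 intensity was 16.35, 16.22, 16.37 and 16.32 in the control channel and 15.69, 15.41, 15.72 and 15.54 in the treated channel, again without overlap. The ratios were -0.66 and -0.81 at day 5 and -0.65 and -0.77 at day 8. It fell by 0.73 at day 5 (SE 0.08, limma adjusted p = 0.0104) and by 0.71 at day 8 (SE 0.08, adjusted p = 0.0123). Over both days it fell by 0.72 (SE 0.06, adjusted p = 0.00246), leaving 60.6% of control. Leaving out either day 5 array ended its day 5 call (adjusted p = 0.0527 without replicate 1 and 0.103 without replicate 2), and leaving out either day 8 array its day 8 call (0.0601 and 0.107).

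The uptake transporter Slc10a1 was lower in the treated pool on all 4 arrays, by less than Abcb11. The ratios were -0.66 and -0.27 at day 5 and -0.50 and -0.19 at day 8, with the lower value of each day in replicate 1. The mean of both days fell by 0.40 (SE 0.09, limma adjusted p = 0.0328), to 75.7% of control. Neither day passed alone, with means of -0.46 at day 5 (SE 0.13, adjusted p = 0.08) and -0.34 at day 8 (SE 0.13, adjusted p = 0.161), whereas with the replicate block both did (0.00707 and 0.0168). The call for both days was lost without day 5 replicate 1 (0.104), day 8 replicate 1 (0.107) or day 8 replicate 2 (0.0528), with the scanner's processed signals (0.0762), with the authors' deposited log10 ratios (0.0765) and without background subtraction (0.118). With median centring in place of loess Abcb11 (-1.05, adjusted p = 0.177), Hsd3b7 (-0.70, 0.417) and Slc10a1 (-0.39, 0.476) all lost their calls for both days.

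These RNA pools came from whole liver, so that fewer hepatocytes and less RNA per hepatocyte cannot be told apart. Beside the 3 falls, the summed linear intensity of the 10 hepatocyte markers ranged from 1076750 to 1398090 in the treated channel and from 1040120 to 1480770 in the control channel, and 2 of 10 (Apob and Ttr) fell. Macrophage markers fell in 8 of 11, where 16.3% of all genes fell, with a summed intensity of 43028 to 68922 in the treated and 83368 to 91457 in the control channel. Both lists were well above background throughout. Neutrophil markers fell in 6 of 9, with a summed intensity of 2881 to 4371 in the treated and 13033 to 18223 in the control channel. Exocrine pancreas markers fell in 5 of 12, and their median ratio was -3.00 and -3.89 at day 5, 0.58 on day 8 replicate 1, where all 12 were above 0, and -3.69 on day 8 replicate 2. Their part in the results was not tested.

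The promoters of the members that fell are shown because these genes moved the same way, and that of Cyp8b1 because it held a match to the HNF4A motif. The sequences are the 250 bases before the start site in RefSeq (GRCm38.p6), found for 7 of the 10 members; Cyp7a1, Cyp7b1 and Baat had no entry. Capitals mark matches on either strand.
Abcb11, chr2:69342617-69342866, minus strand: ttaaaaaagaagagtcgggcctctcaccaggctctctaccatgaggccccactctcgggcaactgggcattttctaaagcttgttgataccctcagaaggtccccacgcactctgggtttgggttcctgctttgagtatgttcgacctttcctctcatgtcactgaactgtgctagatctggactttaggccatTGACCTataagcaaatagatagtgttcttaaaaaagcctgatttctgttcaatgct
Hsd3b7, chr7:127800359-127800608, plus strand: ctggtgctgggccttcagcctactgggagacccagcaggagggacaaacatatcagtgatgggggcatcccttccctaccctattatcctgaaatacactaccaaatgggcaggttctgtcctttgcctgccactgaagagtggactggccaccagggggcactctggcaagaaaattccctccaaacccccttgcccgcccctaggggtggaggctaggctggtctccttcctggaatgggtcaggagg
Slc10a1, chr12:80968706-80968955, minus strand: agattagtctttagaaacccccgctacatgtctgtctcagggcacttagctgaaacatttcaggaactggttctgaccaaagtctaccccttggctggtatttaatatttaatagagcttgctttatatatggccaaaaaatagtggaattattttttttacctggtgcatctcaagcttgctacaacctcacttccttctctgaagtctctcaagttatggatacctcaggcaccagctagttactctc
Cyp8b1, chr9:121916306-121916555, minus strand: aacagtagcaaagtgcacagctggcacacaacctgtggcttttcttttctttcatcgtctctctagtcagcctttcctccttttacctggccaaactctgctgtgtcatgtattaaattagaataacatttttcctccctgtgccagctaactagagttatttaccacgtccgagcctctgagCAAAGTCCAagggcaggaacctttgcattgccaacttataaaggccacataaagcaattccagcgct

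The motifs searched were the FXR inverted repeat by its name, CAAGGTCA (LRH-1, the product of Nr5a2), CAAAGTCCA (HNF4A), ATCGAT (Cux proteins) and ATCAAT (HNF6, the product of Onecut1), each as an exact match. The HNF4A motif lay in the Cyp8b1 window, from 67 to 59 bases before the start, and in 0.384% of the 32851 promoter windows of that length. The others had no exact match in the 7 members, and their shares over all windows were 1.33% for CAAGGTCA, 0.728% for ATCGAT, 6.72% for ATCAAT and 0.006% for the inverted repeat. Only 2 of the 32851 windows held the exact inverted repeat, so its absence from 7 says nothing on FXR sites. Inexact repeats were not searched. The nuclear receptor core AGGTCA, which lies within CAAGGTCA and the inverted repeat and was added after the sequences had been seen, had a match on the opposite strand of the Abcb11 window, 56 to 51 bases before the start. It was also in the Nr1h4 window and in 14.0% of all windows. A match describes the letters and shows no binding.

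Cyp7a1, the rate-limiting enzyme of the classical route, had ratios of opposite sign in the 2 replicates of each day: -0.41 and 0.70 at day 5, -0.83 and 1.30 at day 8. Its log2 intensity in the control channel was 16.03 on day 5 replicate 1, 14.80 on day 5 replicate 2, 16.07 on day 8 replicate 1 and 14.92 on day 8 replicate 2. In the treated channel it was 15.62, 15.50, 15.24 and 16.22 in the same order. The control values thus fell into a high pair on the replicate 1 arrays and a low pair on the replicate 2 arrays, and the treated values lay above the low pair, with 1 of 4 also above the high pair. The mean over both days was 0.19 (SE 0.39, limma adjusted p = 0.762), with a 95% interval from -0.83 to 1.21, so that neither a fall of that size nor a rise was resolved. Its second probe gave -0.44, 0.65, -0.74 and 1.30, the same signs on all 4 arrays. Without day 5 replicate 2 or day 8 replicate 2 the mean was below 0 (-0.09 and -0.34).

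Cyp8b1, the sterol 12-alpha-hydroxylase of cholic acid synthesis, was lower in the treated pool on all 4 arrays, with a wide spread. The ratios were -1.93 and -0.62 at day 5 and -1.35 and -0.24 at day 8. Its control intensities also parted by replicate number, at 10.60 and 10.64 on the replicate 1 arrays and 9.72 and 9.77 on the replicate 2 arrays. The treated intensities were 8.67 and 9.10 at day 5 and 9.29 and 9.53 at day 8, all below the lowest control value. The mean over both days was -1.04 (SE 0.28, interval -1.77 to -0.30) and missed the threshold (limma adjusted p = 0.0503). It passed with the replicate block (0.000328), without day 5 replicate 2 (-1.36, 0.0357), without day 8 replicate 2 (-1.32, 0.0492) and among probes well above background in all 8 readings (0.0423).

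The gap between replicate numbers was among the widest of all genes for both enzymes. Averaged over the days, replicate 2 lay 1.62 above replicate 1 for Cyp7a1 and 1.21 above it for Cyp8b1. Larger absolute gaps occurred in 0.354% and 0.753% of the genes tested, for which the median gap was 0.11 and the 95th percentile 0.49. Abcb11, with a gap of 0.0024, was at the other end. The hepatocyte markers moved with the replicate number as well: their summed control intensity was 1092170 and 1040120 on the replicate 1 arrays and 1448260 and 1480770 on the replicate 2 arrays, the opposite order to Cyp7a1 and Cyp8b1. Their treated sums went the other way, at 1353600 and 1398090 on the replicate 1 arrays and 1076750 and 1154690 on the replicate 2 arrays. The red channel thus held the higher sum on every array. Dye orientation and replicate number, and possibly the control pool, cannot be told apart here.

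**Figure D2:**
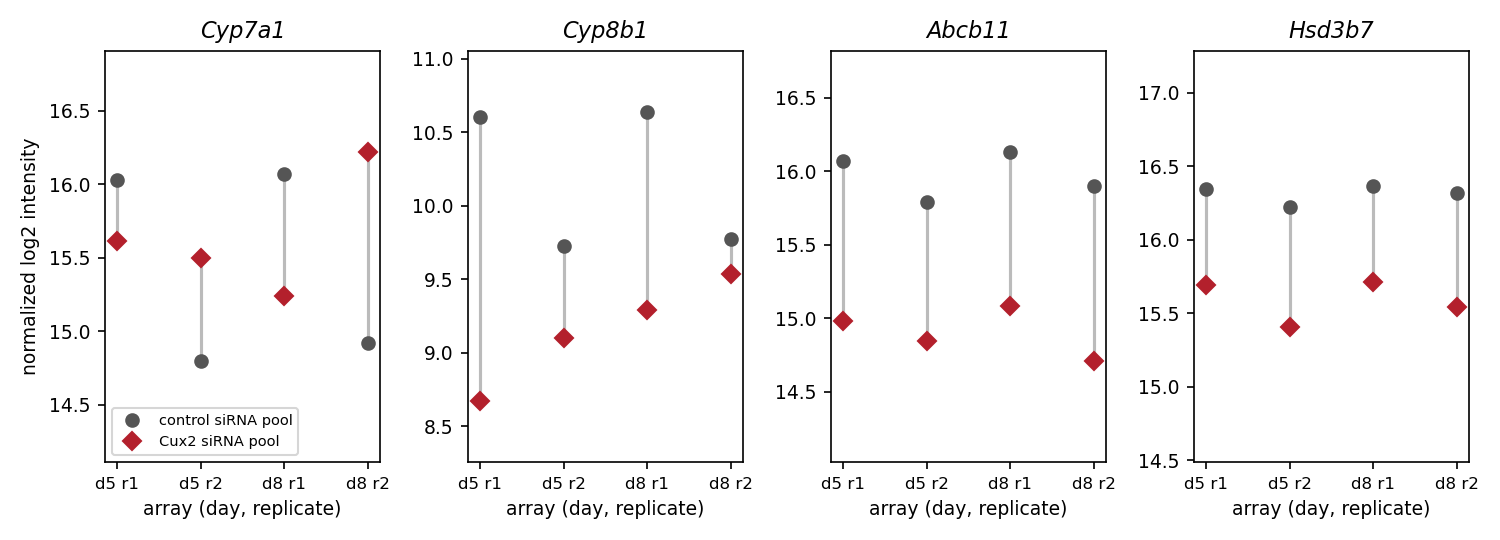
Normalised log2 intensity (vertical axis, each panel spanning the same range) of 4 bile acid genes in the control channel (grey circles) and the treated channel (red diamonds) of each array (d, day; r, replicate); the grey line is the ratio. The control points of Cyp7a1 lie at 16.03 and 16.07 on replicate 1 arrays and at 14.80 and 14.92 on replicate 2 arrays, whereas those of Hsd3b7 lie within 16.22 to 16.37.

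In the alternative route neither enzyme passed. Cyp7b1, the oxysterol 7-alpha-hydroxylase, whose expression in mouse liver is higher in males, had ratios of -0.62 and -0.56 at day 5. At day 8 it had 0.10 on replicate 1 and -0.66 on replicate 2, so that 3 of 4 arrays agreed in sign. The mean over both days was -0.43 (SE 0.13, interval -0.78 to -0.09, limma adjusted p = 0.0653). It passed with the replicate block (0.0258) and without day 8 replicate 1 (-0.62, 0.0117). Without day 8 replicate 2 the mean was -0.25, and the day 8 value alone was then 0.10. Cyp27a1, the mitochondrial sterol 27-hydroxylase, had ratios of -0.17, -0.18, -0.02 and -0.16. Its mean was -0.13 (SE 0.05, adjusted p = 0.117), with an interval from -0.27 to 0.00052.

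Baat, the conjugating enzyme, was slightly higher in the treated pool on all 4 arrays, at 0.14 and 0.16 at day 5 and at 0.09 on each array of day 8. Its mean of 0.12 (SE 0.05, interval 0.00097 to 0.24) did not pass (limma adjusted p = 0.114). The second Baat probe gave 0.23, 0.35, 0.23 and 0.21, and with the mean of both probes the gene passed (0.19, adjusted p = 0.0361), as it did without background subtraction (0.18, 0.0176).

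Neither gene of the feedback arm passed. Nr1h4, which encodes FXR, had ratios of 0.08 and 0.38 at day 5 and 0.04 and 0.37 at day 8, the higher value of each day in replicate 2. Its mean was 0.22 (SE 0.08, interval -0.0044 to 0.44, limma adjusted p = 0.122), and with the replicate block it passed (0.0134). Nr0b2, which encodes SHP, had ratios of 0.10 and -0.08 at day 5 and -0.48 and -0.08 at day 8. Its mean was -0.13 (SE 0.09, interval -0.36 to 0.09, adjusted p = 0.302).

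No member passed the test of a difference between the days. The day 8 ratio minus the day 5 ratio ranged from -0.29 (Nr0b2, SE 0.17) to 0.48 (Cyp8b1, SE 0.56), and 0 of 10 members passed (limma; 0 of 10 had an unadjusted p under 0.05), where 0% of all 25113 genes passed (619 had an unadjusted p under 0.05). The intervals were wide for some: -0.99 to 1.96 for Cyp8b1 and -1.96 to 2.13 for Cyp7a1. This fit holds no term for the replicate number, so a gap between replicate numbers widens an interval. From day 5 to day 8, Cyp8b1 went from -1.93 to -1.35 in replicate 1 and from -0.62 to -0.24 in replicate 2. Cyp7a1 went from -0.41 to -0.83 and from 0.70 to 1.30. With the replicate block 0 members and 0 of all genes passed this test. For Abcb11 the difference was -0.10, between -0.39 and 0.19, and for Hsd3b7 it was 0.02, between -0.27 and 0.31.

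**Figure D3:**
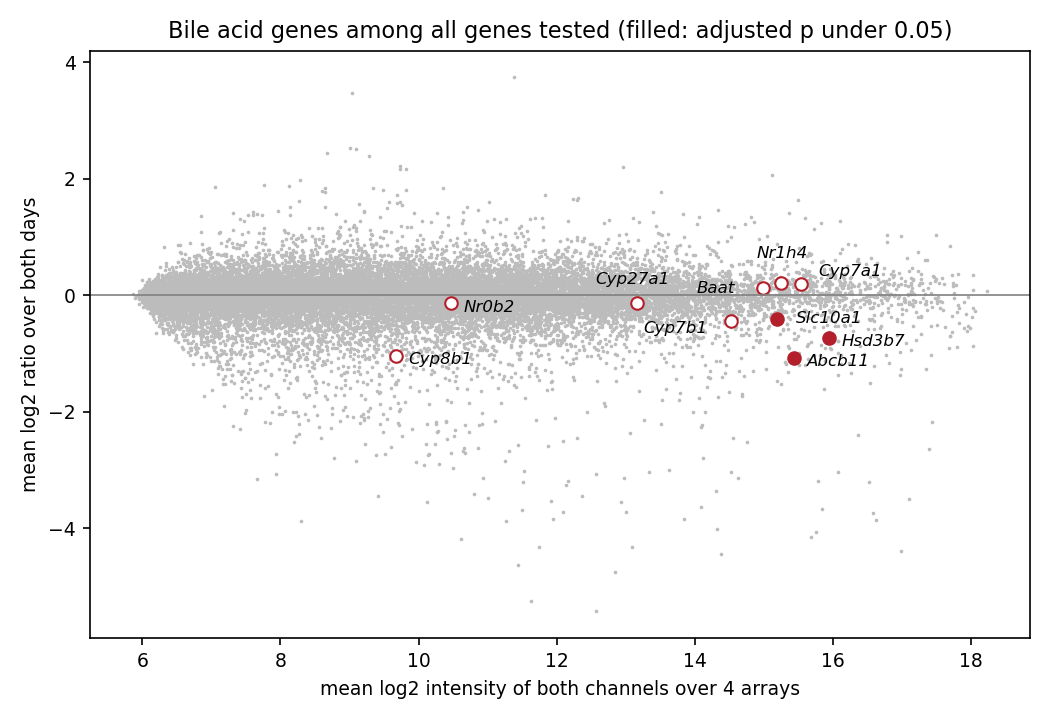
Mean log2 ratio over both days (vertical axis) against mean log2 intensity of both channels (horizontal axis) for the 25113 genes tested (grey), with the bile acid genes as red circles, filled where the adjusted p is under 0.05. Abcb11 at -1.07 and Cyp8b1 at -1.04 are the lowest members, and 1.94% and 2.05% of all genes lay below them.

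Of 61 other genes of bile acid synthesis, transport and regulation on a list from general knowledge, 55 were tested, and 27 of them passed for both days (16 rose, 11 fell), or 49.1% beside 31.0% of all genes. The list was drawn up with earlier results of these data known. Its share, and those of its parts below, are thus descriptive. The median of the 55 was 0.06. Among probes well above background in all 8 readings, 26 of these genes passed (16 rose, 10 fell), beside 36.4% of all genes tested there. Slco1b2 and Slc10a5 had no probe matched by accession. Slc51a, Gpbar1 and Fgf15, with 0 of 8 readings well above background, were not tested. Sult2a8 was not tested either, because its probe had no value on day 8 replicate 1. All 8 of its readings were well above background, and its ratios were 1.28 and 1.34 at day 5 and 1.47 on day 8 replicate 2. Under the scanner's processed signals or the authors' deposited log10 ratios 17 of the 55 passed (14 rose, 3 fell), where 26.5% of all genes did. With median centring 1 of the 55 passed, where 1.07% of all genes did. Without day 5 replicate 2 or day 8 replicate 2, fewer of the 55 and fewer of all genes passed.

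Among the other synthesis genes 3 rose, 3 fell and 11 did not pass of 17. Ch25h, the cholesterol 25-hydroxylase, which macrophages also express, had ratios of -1.22 and -1.51 at day 5 and -1.27 and -1.68 at day 8. It was dim, though well above background in all 8 readings. Its log2 intensity was 6.76 to 6.81 in the treated and 7.98 to 8.45 in the control channel. Fgf15, with 0 of 8 such readings, lay between 5.90 and 6.08. Ch25h fell by 1.42 (SE 0.09, limma adjusted p = 0.00188) and passed under all 12 other settings, with values from -2.34 with the processed signals to -0.59 without background subtraction. The 8 falls among 11 macrophage markers given above stood beside it, and their part was not tested. Cyp39a1, the 24-hydroxycholesterol 7-alpha-hydroxylase, fell by 0.35 (SE 0.06, adjusted p = 0.0122), and ferredoxin (Fdx1), which passes electrons to Cyp27a1, by 0.26 (SE 0.05, adjusted p = 0.0222). Por, the electron donor of microsomal P450s, rose by 0.65 (SE 0.06, adjusted p = 0.00347). Rises were also seen in the bile acid-CoA ligase Slc27a5 (0.40, SE 0.09, adjusted p = 0.0305) and in Papss2, which makes the sulphate donor (0.24, SE 0.05, adjusted p = 0.0225).

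Of 16 other transport genes 6 rose, 1 fell and 9 did not pass. The share passing was 43.8%, beside 31.0% of all genes tested (14.8% rose, 16.3% fell). Abcc2, a canalicular exporter of conjugates, was the gene that fell, with ratios of -0.82, -0.75, -0.86 and -0.17 and a mean of -0.65 (SE 0.12, limma adjusted p = 0.0183). The basolateral exporter Abcc4 rose by 0.65 (SE 0.17, adjusted p = 0.043), with ratios of 0.46, 1.07, 0.15 and 0.92. The basolateral organic anion transporter Slco1a4 rose by 0.70 (SE 0.12, adjusted p = 0.0163), and microsomal epoxide hydrolase (Ephx1) by 0.72 (SE 0.12, adjusted p = 0.0125). Slc10a2, the sodium-dependent transporter of ileum and bile ducts, rose by 0.79 (SE 0.16, adjusted p = 0.0219), with ratios of 1.02 and 0.88 at day 5 and 1.08 and 0.17 at day 8. Beside Slc10a2, 1 of 8 bile duct markers tested passed upwards (Sox9, 0.63) and none passed downwards. Means of both days ran from -0.77 to 0.63 in these 8 markers, with 4 above 0 and a median of 0.0077. Their summed intensity was 9060 to 13236 in the treated and 9947 to 12246 in the control channel, and their part was not tested. Of 8 ileal markers, a list that holds Slc10a2 itself, 4 were tested and 2 of these rose, Slc10a2 and Vil1 (0.53, SE 0.13, adjusted p = 0.0352). The lowest of the 4 was at -0.67 and did not pass. Fabp6 and Fgf15 were not tested.

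Regulators passed in 14 of 22 cases, 7 in each direction. The share passing was 63.6%, beside 31.0% of all genes tested (14.8% rose, 16.3% fell). Klb, the partner of Fgfr4 in the response to Fgf15, had ratios of -1.20, -1.13, -0.95 and -1.05. It fell by 1.17 at day 5 (SE 0.07, limma adjusted p = 0.00455), by 1.00 at day 8 (SE 0.07, adjusted p = 0.00637) and by 1.08 over both days (SE 0.05, adjusted p = 0.00108). Fgfr4 itself had a mean of -0.06 (SE 0.09, adjusted p = 0.669). The coactivator Ppargc1a fell by 0.62 (SE 0.11, adjusted p = 0.0168), the oxysterol receptor Nr1h2 by 0.44 (SE 0.09, adjusted p = 0.0246) and Cebpa, a transcription factor of hepatocytes, by 0.31 (SE 0.06, adjusted p = 0.0221). Cebpa's other probe averaged -0.10. The xenobiotic receptor Nr1i3 (CAR) rose by 0.76 (SE 0.11, adjusted p = 0.00949), the homeobox factor Prox1 by 0.50 (SE 0.06, adjusted p = 0.00582) and Onecut1 (HNF6) by 0.43 (SE 0.06, adjusted p = 0.0081). The other probe of Prox1 averaged 0.32.

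Several of these pathway calls turned on 1 array. Without day 5 replicate 2 the calls of Abcc2, Slco1a4, Ppargc1a, Slc10a2, Abcc4, Nr1h2, Cebpa, Cyp39a1, Fdx1 and Papss2 were lost. Leaving out any 1 of the other 3 arrays ended the calls of Fdx1, Papss2 and Slc27a5. Day 5 replicate 1 also decided Abcc2, Slc10a2 and Cebpa, day 8 replicate 1 also Cyp39a1 and Cebpa, and day 8 replicate 2 also Abcc4, Ephx1 and Nr1h2. Klb, Ch25h, Por, Nr1i3, Prox1 and Onecut1 kept their calls without any 1 array. With the scanner's processed signals or the authors' log10 ratios, Abcc2, Abcc4, Ppargc1a, Nr1h2, Cebpa, Fdx1, Cyp39a1 and Papss2 lost their calls. Without background subtraction Abcc2, Abcc4, Ppargc1a, Nr1h2, Cebpa, Fdx1, Slc10a2 and Slco1a4 did. With median centring Klb (-1.11, limma adjusted p = 0.0846) and the others named, except Ch25h, lost theirs.

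**Figure D4:**
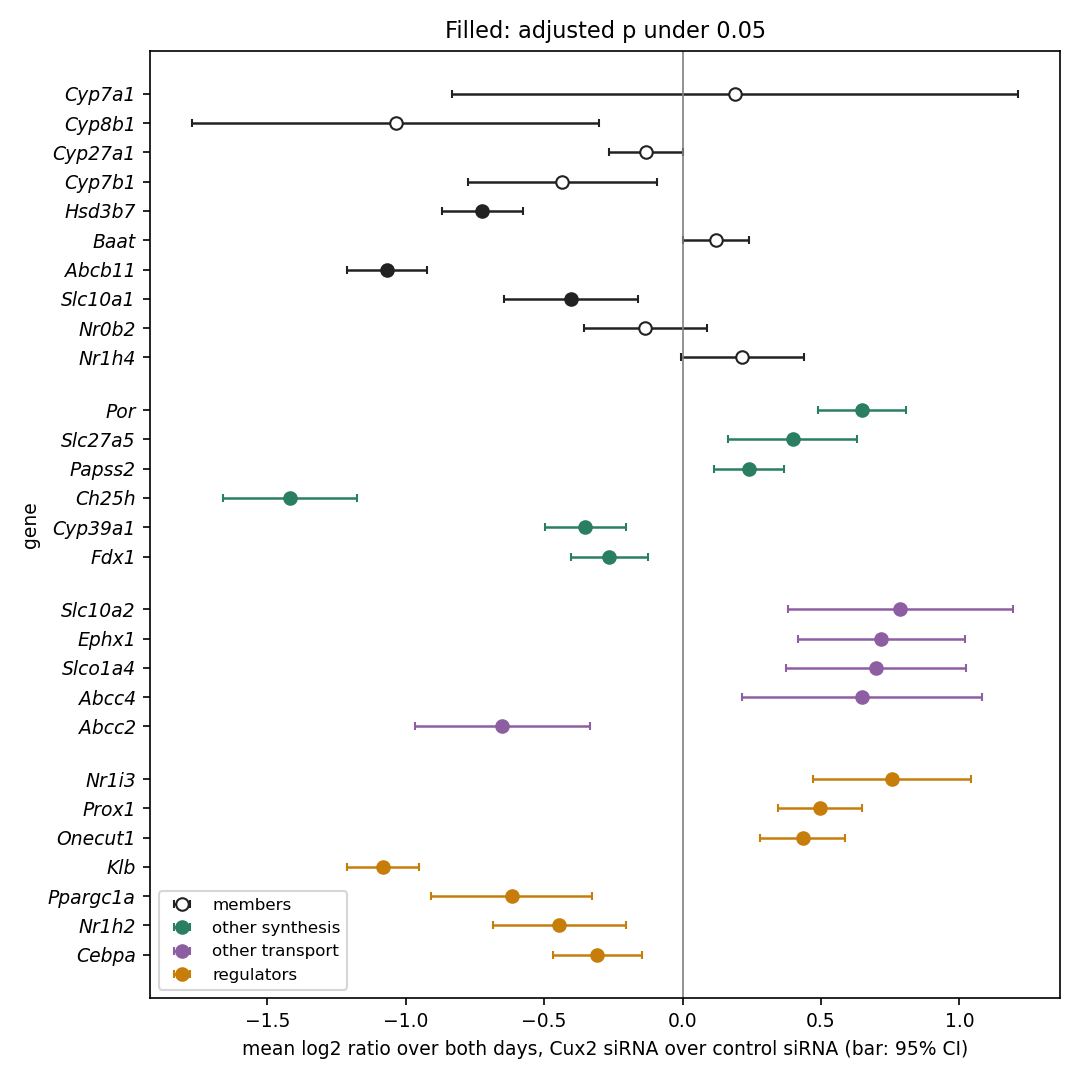
Mean log2 ratio over both days (horizontal axis) with its 95% confidence interval for the 10 bile acid genes (black) and the other synthesis, transport and regulatory genes named (coloured); filled circles have an adjusted p under 0.05. Abcb11 at -1.07 and Klb at -1.08 have narrow intervals on the low side, and that of Cyp7a1 runs from -0.83 to 1.21.

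**Figure D5:**
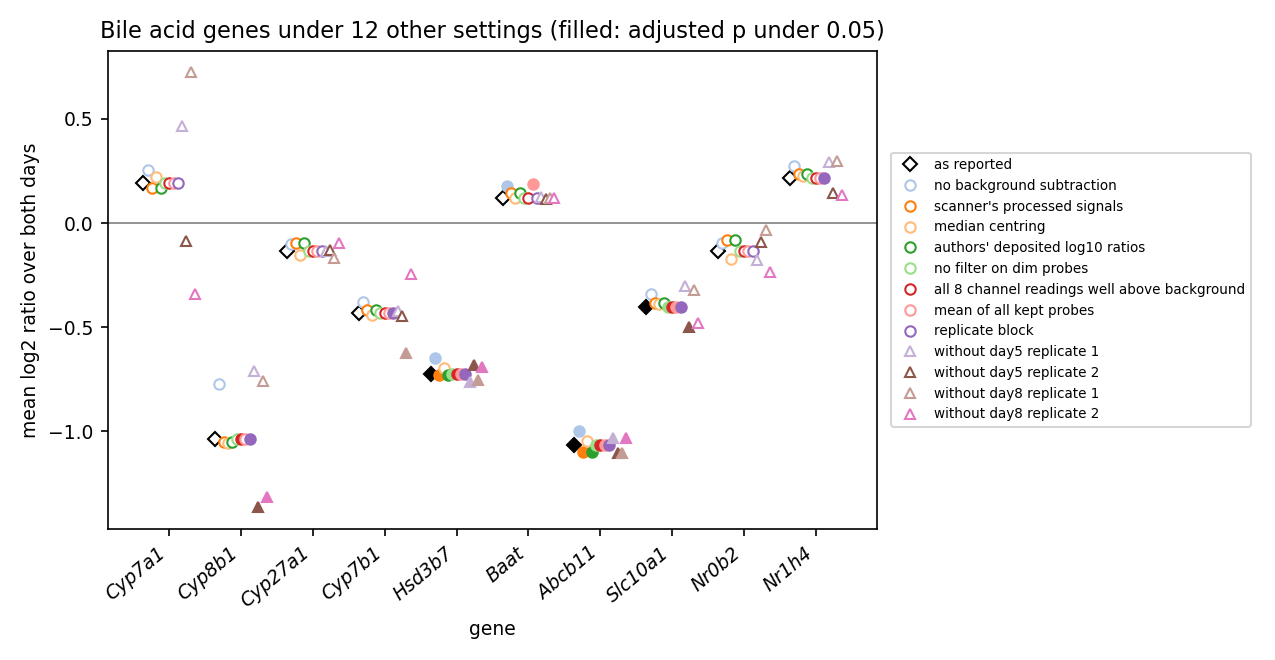
Mean log2 ratio over both days (vertical axis) of each bile acid gene as reported (black diamonds) and under 12 other settings (circles, or triangles where 1 array was left out); filled symbols have an adjusted p under 0.05. The lowest value of Abcb11 is -1.10, while Cyp7a1 runs from -0.34 to 0.72.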

How the data were processed

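Per the file headers, the authors extracted the scans with Feature Extraction (10.7.1.1). From these deposited files, the intensity columns taken were the median spot and local background signals, and the processed signals as an alternative. The authors' value table holds log10 ratios, which equal the scanner's to within 5.00e-06 after a sign change where the treated pool was green, so they run treated over control on all 4 arrays, each with a median of 0. The scanner's deposited p-value of each spot was not used. Normexp (offset 50) removed the background in limma (3.58.1, under R 4.3.3), and loess, to which the 1639 control spots gave no weight, normalised the ratios, 181 to 298 outlier spots per array were left out and spots were averaged per probe. Of 41174 probes, 56.8% were named through their accession in a GRCm38.p6 table, and the rest were tested under the accession alone. The array design names another build, so no probe coordinates are given. A probe needed at least 2 of 8 readings well above background (31788 did), and the brightest probe stood for a gene. Channel levels were scaled by Aquantile. The fit was tested on simulated data. It had 2 residual and 2.76 prior degrees of freedom, and the number of arrays limits the precision. Tests ran over all genes, with 12 alternatives. The genes named are the members, Cux2, and the other pathway genes that passed for both days, at most the 4 largest each way per list, except that some items are not reported here. Members, lists and tests were chosen with earlier results of these data known.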

Additional observations from a re-analysis of the deposited data

How the results depend on the processing

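Abcb11 and Hsd3b7 kept their direction under all 12 alternatives at each day and for both days. The number of members passing changed by over 1.5 times with median centring, to 0 at day 5, 0 at day 8 and 0 for both days, and with the replicate number as a term (replicate block), to 6, 4 and 6. Leaving out 1 array gave 0 to 3 members at day 5, 0 to 2 at day 8 and 2 to 4 for both days. Of the other pathway genes 27 passed for both days (59.3% of them rises), 17 with the scanner's processed signals or the authors' log10 ratios (82.4% rises, beside 55.7% of all genes called), 1 with median centring, and 10 to 18 without 1 array. No value changed sign where a call was made. Over all genes, 4212 passed at day 5, 3588 at day 8 and 7795 for both days. Median centring left 5, 3 and 269 (32.3% of the last rises, beside 47.6%), and the replicate block gave 8227, 7447 and 11247. The processed signals gave 2006 and 1477 at days 5 and 8, the authors' values 2015 and 1468, and the fit without background subtraction 2104 at day 8. Without 1 array the counts ran from 234 to 3592, 137 to 2455 and 3857 to 5500. Across genes, the deviations of the replicate 1 arrays from their day means correlated at 0.50 between the days. There are 2 pairs, the number is also the dye orientation, and the block may remove a control pool's spread with it. Leaving out an array leaves its day with 1, assumed to vary like the others. The cause of these changes was not tested.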

Other observations

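Further regulators and transporters of the pathway list passed for both days and are named here after their values were seen. The retinoid partner receptor Rxra averaged -0.31 (SE 0.06, limma adjusted p = 0.0175). Nr5a2 (LRH-1), an activator of Cyp7a1 and Cyp8b1, averaged -0.28 (SE 0.06, limma adjusted p = 0.0256), and the vitamin D receptor Vdr -0.26 (SE 0.05, limma adjusted p = 0.0218). Vdr was dim, with 7 of 8 readings well above background and log2 intensities between 6.11 and 6.51. Fgf15, with 0 of 8, lay between 5.90 and 6.08. The other Rxra probe averaged -0.80. On the other side of 0 stood the hepatocyte factor Hnf4a at 0.37 (SE 0.07, limma adjusted p = 0.0191) and the xenobiotic receptor Nr1i2 (PXR) at 0.41 (SE 0.06, limma adjusted p = 0.0114). The probes of Hnf4a disagreed: its other probes averaged 0.22 and -0.08, the latter below 0 on all 4 arrays. The exporter Abcg2 averaged 0.48 (SE 0.05, limma adjusted p = 0.00396) and Abcc6 0.22 (SE 0.05, limma adjusted p = 0.0288). Of the canalicular lipid transporters, Abcg5 at -0.42 (SE 0.14, limma adjusted p = 0.079), Abcg8 at -0.19 (SE 0.12, limma adjusted p = 0.283) and Abcb4 at -0.32 (SE 0.12, limma adjusted p = 0.11) did not pass. The other Abcg8 probe was below 0 on all 4 arrays and averaged -0.56.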
